A study of Mus musculus with 56 samples.

Results

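Olfactory and vomeronasal receptor genes were the nearest genes of 82 of the 9395 H2A.Z peaks that the authors listed as changed, 70 of them in the list of lower peaks and 12 in the list of higher peaks. The peaks were found by name, as those whose gene in either list was Olfr, Vmn1r or Vmn2r followed by a number, and they belonged to 79 genes. The data are CUT&Tag libraries, in which an antibody guides a transposase to the chromatin that carries its target. The cells were the mouse embryonic stem cell line RHKI, made from E14Tg2a with an HA-Rnaseh1 knock-in and grown in 2i/LIF medium with FBS, and both groups carry that knock-in. H2A.Z had 4 control libraries and 4 Dox libraries, the latter treated with doxycycline at 500 ng/ml over 48 hours, and an effect of doxycycline itself cannot be told apart from one of RNase H1. The files give positions and annotation of peaks with no value for any library, so depth, sizes of change and replicate spread could not be examined, and the level of Rnaseh1 and of cell type markers was not measured.

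Odorant receptors, encoded by the Olfr genes, and pheromone receptors, encoded by Vmn1r and Vmn2r genes, are G protein-coupled receptors of sensory neurons in the nose. In general an olfactory neuron expresses a single Olfr gene out of a very large repertoire. The receptor genes lie in tandem clusters on many chromosomes, in AT-rich DNA with many retrotransposons. Most Olfr and Vmn1r genes carry their whole coding sequence in a single exon, while Vmn2r genes have several coding exons. Outside the nose the receptor clusters are known as silent chromatin. H2A.Z is a variant of histone H2A found mostly at promoters and enhancers, and RNase H1 removes the RNA strand of RNA:DNA hybrids (R-loops).

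Of all 61420 H2A.Z peaks, 14.8% were in the lower list and 0.518% in the higher list. Receptor peaks made up 0.771% of the lower list (95% exact Clopper-Pearson interval 0.602 to 0.973%) and 3.77% of the higher list (1.96 to 6.50%). The receptor share of the whole set by the same name rule was not computed, so these 2 shares have no base. By another rule, 415 peaks had the end of a receptor gene as their nearest gene end. Of these 53 were lower (12.8%, 9.71 to 16.4%), an interval that includes 14.8%. Higher were 12 of the 415 (2.89%, against 0.518%). Such intervals reflect counting alone, and neighbouring peaks are not independent. Of the 70 lower peaks 51 were assigned to Olfr, 10 to Vmn1r and 9 to Vmn2r genes. Of the 12 higher peaks 11 were assigned to Olfr genes and 1 to Vmn2r70, with none at a Vmn1r gene. RefSeq lists 1428 Olfr, 233 Vmn1r and 126 Vmn2r genes and pseudogenes on GRCm38.p6, so 4.13%, 4.29% and 7.94% of the 3 families had a listed peak. Over all 49997 RefSeq genes and pseudogenes 13.4% had a lower peak and 0.550% a higher one. All these shares also count genes and pseudogenes with no H2A.Z peak. Only 3 genes had 2 listed peaks. Olfr820 had 2 higher peaks, and Olfr18 and Olfr1324 had 2 lower peaks each.

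Of the 14 peaks closest to receptor genes, 13 were annotated to receptor exons and 1, at Olfr874, to a promoter. Centred at most 1 kb from an annotated transcription start site (TSS) were 10 lower peaks, at Olfr94, Olfr95, Olfr222, Olfr279, Olfr281, Olfr315, Olfr317, Olfr322, Olfr455 and Olfr1349. Of the higher peaks 4 were, at Olfr820, Olfr874, Olfr1043 and Olfr1126. Among the RefSeq models of these 14 genes 11 have a length that is a multiple of 3, against 78.7% of protein-coding Olfr models, and the median length of the 14 was 955.5 base pairs. Whether these models hold untranslated parts was not examined, so the annotated TSS need not be where transcription begins. The RefSeq gene of Olfr1349 runs from 6514199 to 6520355 on chromosome 7, minus strand, and the start used by the authors' annotation lies inside it. The bases just before the annotated TSS are shown for the 3 higher genes that the RefSeq promoter table holds and for 3 of the 9 lower ones, to set the composition of both sides next to each other. Each run is the 250 bases before the start, 5′ to 3′ along the gene on GRCm38.p6, with CG dinucleotides in capitals.

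The higher genes are Olfr820 (chr10:130017113-130017362, plus strand), Olfr1043 (chr2:86162948-86163197, minus strand) and Olfr1126 (chr2:87456917-87457166, plus strand).
Olfr820: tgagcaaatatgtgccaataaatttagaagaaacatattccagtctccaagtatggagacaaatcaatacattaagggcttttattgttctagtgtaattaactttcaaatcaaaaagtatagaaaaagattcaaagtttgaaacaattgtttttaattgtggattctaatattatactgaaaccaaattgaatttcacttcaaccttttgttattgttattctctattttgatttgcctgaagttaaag
Olfr1043: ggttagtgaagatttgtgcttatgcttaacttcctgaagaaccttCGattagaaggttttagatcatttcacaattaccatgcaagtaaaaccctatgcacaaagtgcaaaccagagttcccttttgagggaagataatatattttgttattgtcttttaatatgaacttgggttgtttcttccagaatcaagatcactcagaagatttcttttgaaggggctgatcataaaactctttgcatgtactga
Olfr1126: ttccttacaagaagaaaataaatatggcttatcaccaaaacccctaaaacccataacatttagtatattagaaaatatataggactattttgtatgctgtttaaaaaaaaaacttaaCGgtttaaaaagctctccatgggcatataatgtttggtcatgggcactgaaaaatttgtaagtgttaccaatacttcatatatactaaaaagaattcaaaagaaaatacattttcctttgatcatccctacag

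The lower genes are Olfr322 (chr11:58665311-58665560, plus strand), Olfr317 (chr11:58733224-58733473, minus strand) and Olfr1349 (chr7:6515428-6515677, minus strand).
Olfr322: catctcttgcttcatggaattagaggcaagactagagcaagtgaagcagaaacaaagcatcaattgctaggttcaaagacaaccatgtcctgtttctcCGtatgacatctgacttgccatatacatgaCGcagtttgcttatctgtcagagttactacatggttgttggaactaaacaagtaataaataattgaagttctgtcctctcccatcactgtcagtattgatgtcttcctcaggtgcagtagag
Olfr317: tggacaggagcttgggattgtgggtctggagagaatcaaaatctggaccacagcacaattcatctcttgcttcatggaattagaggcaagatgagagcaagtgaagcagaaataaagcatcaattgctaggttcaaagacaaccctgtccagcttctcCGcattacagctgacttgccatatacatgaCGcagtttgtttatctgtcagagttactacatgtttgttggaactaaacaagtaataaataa
Olfr1349: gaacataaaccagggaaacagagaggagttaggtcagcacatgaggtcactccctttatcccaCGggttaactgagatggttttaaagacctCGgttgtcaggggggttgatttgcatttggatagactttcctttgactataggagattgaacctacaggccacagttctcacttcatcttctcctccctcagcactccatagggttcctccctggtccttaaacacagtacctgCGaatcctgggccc

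The upstream sequences of the higher genes were poorer in G and C than those of the lower genes. Their GC content was 26.8% at Olfr820, 28.8% at Olfr1126 and 35.2% at Olfr1043, with 0, 1 and 1 CG dinucleotides. At the 9 lower genes it ran from 40.8% at Olfr322 to 53.2% at Olfr222, with a median of 47.2% and between 0 and 5 CG dinucleotides. The 2 ranges do not overlap, but they rest on 3 and 9 windows, and all receptor windows together ran from 15.2 to 63.2%. The median over 1270 windows of 1265 receptor genes was 34.8%, against 52.8% over the other windows of the table. Receptor genes overlapped only by H2A.Z peaks of neither list had a median of 39.6% over 43 windows. Their range, from 26.4 to 63.2%, took in those of both groups. The 3 higher peaks did not reach into their own windows, nor did the lower peaks at Olfr279, Olfr317 and Olfr455. The other 6 lower peaks did, and those at Olfr94 and Olfr1349 covered theirs whole. GC content also affects how well a fragment is amplified and sequenced, and its part in the lists was not tested.

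Olfr317 and Olfr322 lie in the same cluster on chromosome 11, and their upstream windows share a run of bases. The genes themselves were not compared. The first 31 bases of the Olfr322 window recur without a mismatch in the Olfr317 window, from its base 61. How the authors treated reads with several matches is not given in the sources used here. A search for the homeodomain core TAATTA, which is the same on both strands, found it in 16.1% of receptor windows and 4.39% of the others. It was present at Olfr820 and in 0 of the 9 lower windows. The EBF core CCCNNGGG, also the same on both strands, was in 3.86% of receptor windows and 12.1% of the others. Of the 3 higher and 9 lower windows, only that of Olfr1349 held it. Receptor windows were poorer in G and C (median 34.8% against 52.8%), and the part of base composition in the shares of both motifs was not tested.

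The 14 peaks differed in where they began and how far they reached. The 3 exonic higher peaks were centred 463 base pairs past the start at Olfr1043, 487 at Olfr1126 and 570 at Olfr820. They lay whole within the gene and covered 53.0%, 53.0% and 66.9% of it. The Olfr874 peak (chromosome 9, 37745239 to 37745882) was centred 576 base pairs before the TSS used by the authors' annotation, which calls it a promoter peak. In the longer RefSeq model of Olfr874, 90.5% of that peak falls inside the gene. The lower peaks were centred between 241 base pairs past the start at Olfr1349 and 702 at Olfr455. They were wider, from 628 base pairs at Olfr317 to 2147 at Olfr94, with a median of 1076.5, against 501 to 644 for the 4 higher peaks. At Olfr94, Olfr95, Olfr222 and Olfr322 the lower peak covered the whole gene. Of the 4 higher peaks, that at Olfr820 was on chromosome 10, those at Olfr1043 and Olfr1126 on chromosome 2 and that at Olfr874 on chromosome 9. None of the 10 lower peaks was on these 3 chromosomes. At all distances, however, chromosomes 10, 2 and 9 held 2, 6 and 4 lower receptor peaks. No split of the lists by chromosome is read from this.

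**Figure D1:**
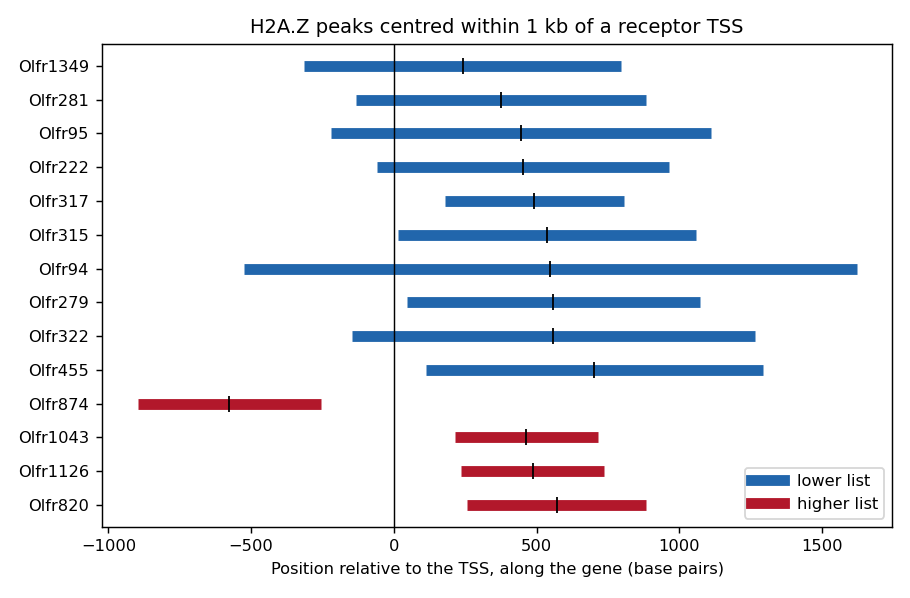
Extent of the 14 H2A.Z peaks centred within 1 kb of a receptor TSS, drawn along each gene in base pairs from the TSS of the authors' annotation, with the centre as a black tick (blue, lower list; red, higher list). The 10 lower peaks are centred 241 to 702 base pairs past the start and several run across it, whereas the exonic higher peaks stay inside the gene and the Olfr874 peak lies before the start.

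Set against every H2A.Z peak at these genes, a listed peak was still the exception. In the whole set 89 peaks overlapped a receptor gene or pseudogene of RefSeq, at 79 of 1787 genes. Of these 16 were lower (18.0%, 10.64 to 27.5%), 4 were higher (4.49%, 1.24 to 11.1%) and 69 were in neither list. The interval of the lower share includes the 14.8% of the whole set, and that of the higher share lies above its 0.518%, although it rests on 4 peaks. The median width of those in neither list was 670 base pairs. Of the 16 lower peaks, 2 overlapped the pseudogenes Olfr240-ps1 and Olfr718-ps1 but were assigned to Lalba and Rnf216, and so are not among the 82.

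Away from the genes the 2 lists fell into different retrotransposons. The authors' annotation names repeats for intron and intergenic peaks, which were 57 of the 70 lower and 8 of the 12 higher peaks. L1 elements, retrotransposons that copy themselves through an RNA, held 48 of the lower receptor peaks. L1Md_T led with 23 and L1Md_A with 18, followed by 3 in L1Md_F, 2 in L1_Mus1 and 1 each in L1Md_F2 and L1Md_Gf. L1Md elements are young L1 elements of the mouse, and they held 46 of the 48. No higher receptor peak was in an L1 element, and 0 of 12 allows a share of up to 25%. The higher peaks on exons and promoters could not be named as L1, so the limit for the 8 others is wider. All 8 higher peaks outside exons and promoters were in long terminal repeats of ERVK retroviruses. They were RLTR13C2 near Olfr352 and Olfr820, RLTR13B1 near Olfr995, RLTR13D6 near Olfr510, RLTR13E near Olfr1151, RLTR13G near Vmn2r70, RLTR11B near Olfr48 and RLTR9A3 near Olfr1045. Of the lower peaks 2 were in ERVK elements, MMERVK10D3_LTR near Vmn1r215 and RLTR44B near Olfr987, and 2 were in B1 SINEs, near Olfr156 and the pseudogene Olfr1372-ps1. The remaining 5 intergenic lower peaks, near Olfr474, Olfr487, Olfr1350, Olfr1371 and Vmn2r121, were in no named repeat.

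Over all receptor peaks, L1 elements held 68.6% of the lower peaks (56.4 to 79.1%) and 0 of the 12 higher peaks (two-sided Fisher's exact test over peaks, adjusted p = 1.65e-05 over 5 tests). ERVK elements held 2.86% of the lower peaks (0.348 to 9.94%) and 66.7% of the higher peaks (34.9 to 90.1%; Fisher's exact test, odds ratio of higher against lower 68.0, adjusted p = 2.83e-06). With 1 peak per gene cluster and list, a setting added after the data were seen because neighbouring peaks are not independent, the adjusted p of the exact test was 0.00284 for L1 and 0.00265 for ERVK. The share in any repeat was 74.3% of the lower and 66.7% of the higher peaks, a difference that the exact test did not detect (adjusted p = 0.725). These p-values compare lists of peaks and say nothing of libraries.

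At other genes ERVK held 1.33% of lower and 26.5% of higher peaks, and L1 held 10.7% and 6.21%. The receptor peaks are part of lists already known to differ in these elements and are no independent evidence of that split. The shares at receptor and other genes are given side by side. Among intron and intergenic lower peaks L1 held 84.2% at receptor genes (72.1 to 92.5%) and 18.8% at other genes (17.7 to 19.9%). Among intron and intergenic higher peaks ERVK held 8 of 8 at receptor genes (63.1 to 100%) and 27% at other genes (22.1 to 32.4%), and RLTR13 elements held 6 of 8 and 16.7%. Inside the receptor clusters L1 held 42 of the 49 intron and intergenic lower peaks assigned to receptors (85.7%) and 9 of the 31 assigned to other genes (29.0%). The difference between receptor and other genes was not tested, and the density of each repeat in the clusters was not analysed.

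**Figure D2:**
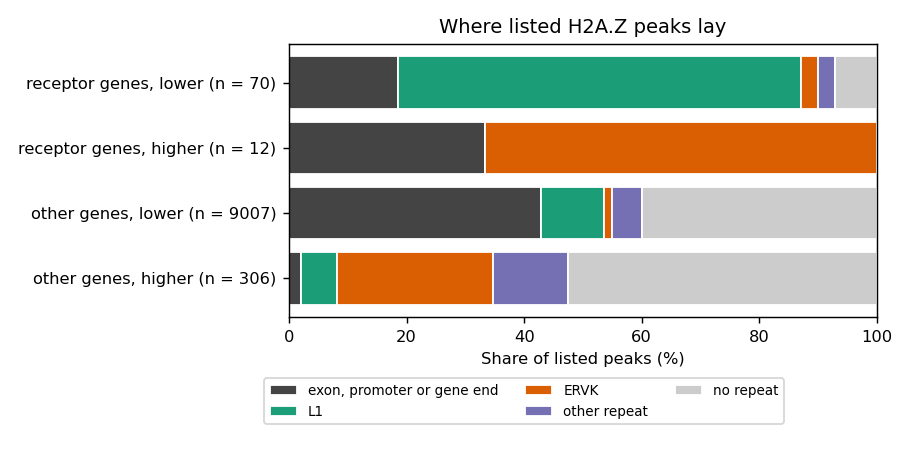
Share of listed H2A.Z peaks (%) by element for the lower and higher lists, split into peaks assigned to receptor genes and to other genes. L1 elements fill most of the lower receptor bar (68.6%) and none of the higher one, in which ERVK elements take 66.7% and exons or promoters the rest.

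Within each family the lower peaks were mostly in L1 elements. They were 31 of 51 for Olfr, 9 of 10 for Vmn1r and 8 of 9 for Vmn2r genes. The 10 lower peaks centred nearest to a start were all at Olfr genes. The lower peaks of the 2 vomeronasal families lay farther out, with a median of 22.8 kb and none closer than 4.92 kb (Vmn1r30), against a median of 10.8 kb for Olfr genes. The single higher vomeronasal peak, in RLTR13G, was 26.6 kb from the TSS of Vmn2r70, the farthest of the 12. Protein-coding Vmn2r models had a median length of 24544 base pairs, against 950 for Olfr, and the part of gene length in these distances was not tested.

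Higher peaks had a shorter median distance to receptor genes than lower peaks. The median distance to the TSS was 5.22 kb for the 12 higher peaks, with quartiles of 0.575 and 9.34 kb, and 14.6 kb for the 70 lower peaks, with quartiles of 5.21 and 25.3 kb. The higher peaks ran from 0.463 kb at Olfr1043 to 26.6 kb at Vmn2r70, with Olfr995 (16.5 kb) and Olfr48 (10.98 kb) next in distance. The lower peaks ran from 0.241 kb at Olfr1349 to 173 kb at Olfr164, with Olfr266 (100 kb) and Olfr1324 (84.6 kb) next. The ranges overlap over almost the whole span of the higher peaks. In the other listed genes the order was the opposite, with medians of 122 kb for 306 higher peaks and 5.50 kb for 9003 lower peaks.

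Within 10 kb of a TSS lay 9 of the 12 higher peaks (75%, 42.8 to 94.5%) and 27 of the 70 lower peaks (38.6%, 27.2 to 51.0%; two-sided Fisher's exact test, adjusted p = 0.0451). This call was lost at 3 kb (33.3% and 18.6%, adjusted p = 0.325), at 30 kb (12 of 12 and 56 of 70, adjusted p = 0.145), without peaks of the minimum width (adjusted p = 0.223), with 1 peak per cluster (adjusted p = 0.282) and among intron and intergenic peaks alone (adjusted p = 0.135), all by the exact test. Just inside 10 kb were the lower peaks at Olfr1372-ps1 (9.73 kb) and Olfr982 (9.85 kb), and just outside were Olfr593 (10.02 kb) and Olfr1213 (10.8 kb). For other genes the shares were 8.17% of higher and 58.2% of lower peaks. The part of gene spacing in these shares was not tested.

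Between 1 and 10 kb lay 5 higher peaks, all in ERVK elements, at Olfr1151 (3.23 kb), Olfr510 (3.97 kb), Olfr1045 (6.48 kb), Olfr820 (6.78 kb) and Olfr352 (8.79 kb). The 17 lower peaks between 1 and 10 kb were more mixed. L1 elements held 10, at Olfr1390 (2.88 kb), Olfr585 (3.64 kb), Olfr1318 (4.54 kb), Olfr480 (4.55 kb), Vmn1r30 (4.92 kb), Vmn1r204 (6.50 kb), Olfr1271 (6.55 kb), Vmn1r23 (7.11 kb), Olfr471 (7.93 kb) and Olfr982. A further 2, at Olfr310 (2.02 kb) and Olfr544 (3.60 kb), were annotated at the end and in the last exon of the receptor gene. The remaining 5 were the intergenic peaks without a repeat at Olfr474 (2.90 kb), Olfr1350 (6.07 kb) and Olfr487 (9.49 kb) and the B1 peaks at Olfr156 (9.66 kb) and Olfr1372-ps1.

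**Figure D3:**
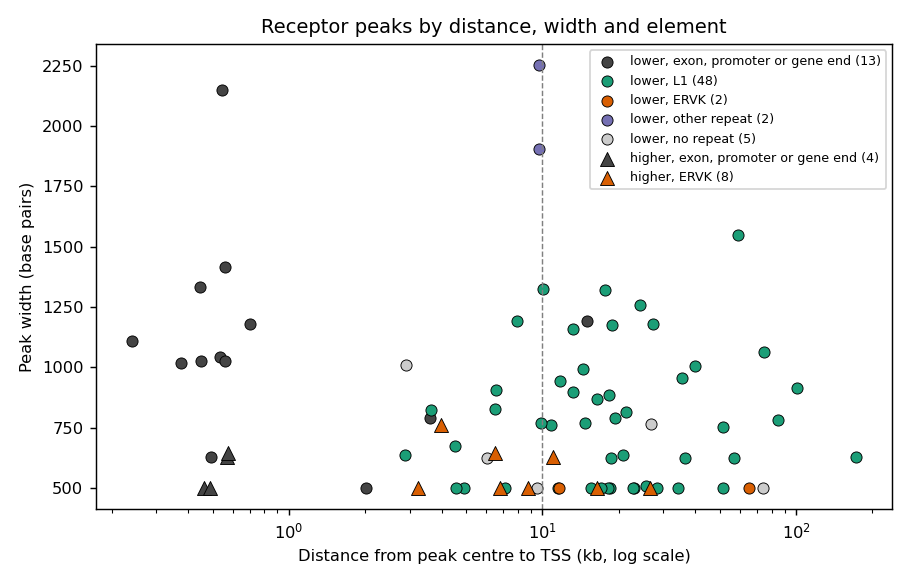
Each of the 82 receptor peaks by distance from its centre to the TSS (kb, log scale) and width (base pairs), with circles for lower and triangles for higher peaks, coloured by element, and a dashed line at 10 kb. Higher peaks sit at narrow widths, up to 760 base pairs, and within 26.6 kb, while lower L1 peaks spread from 2.88 to 173 kb.

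Higher receptor peaks were narrow. The median was 501 base pairs, the minimum width of the whole set, which 7 of the 12 had (58.3%, 27.7 to 84.8%). The widest were at Olfr510 (760 base pairs), Olfr1045 (645), Olfr874 (644), Olfr48 (630) and Olfr820 (628). Lower receptor peaks had a median of 789 base pairs, and 18 of 70 had the minimum width (25.7%, 16.0 to 37.6%; Fisher's exact test, adjusted p = 0.0485). That call was lost narrowly without the pseudogene name (adjusted p = 0.0504) or at up to 600 base pairs (0.0564), and with 1 peak per cluster (0.402) and in introns and intergenic DNA alone (0.135), all by the exact test. The widest lower peaks were at Olfr156 (2252 base pairs, over a B1 element), Olfr94 (2147), Olfr1372-ps1 (1905), Olfr165 (1550, over L1Md_T) and Olfr322 (1414). Lower peaks in L1 elements had a median of 769 base pairs, and the 12 on exons a median of 1076.5. Lower peaks of other genes were wider, with a median of 1036 base pairs, and higher peaks of other genes also had a median of 501.

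Receptor genes were joined into clusters wherever neighbours lay at most 1 Mb apart, which gave 87 clusters, 56 of them with 2 or more genes, over 62.6 Mb. All 12 higher receptor peaks and 61 of the 70 lower ones lay inside. The 9 outside were the lower peaks at Olfr164, Olfr987, Olfr266, Vmn1r2, Olfr70, Vmn1r40 and Vmn2r121 and 1 peak each of Olfr18 and Olfr1324. The clusters held 914 peaks of the set. Of these 124 were lower (13.6%, 11.4 to 16.0%, against 14.8% in the whole set) and 12 were higher (1.31%, 0.680 to 2.28%, against 0.518%). The 12 higher peaks were all receptor peaks, while 63 of the 124 lower peaks were assigned to other genes in or beside the clusters. The interval of the lower share includes the 14.8% of the set. With clusters chained at 500 kb the lower share was 11.2% (9.07 to 13.6%), an interval below that value. Chained at 200 kb it was 11.9% (9.27 to 14.9%), an interval that includes it. The higher share was 2.19% of 548 peaks with clusters chained at 200 kb, and 0.663% of 754 peaks without those of the minimum width. The 0.663% rests on 5 peaks (0.216 to 1.54%) and cannot be set against 0.518%, because the share of the whole set without such peaks was not computed. A higher share inside clusters than in the whole set is therefore not shown without peaks of the minimum width. Peaks of that width made up 15.6% of the whole set and 52.3% of the higher peaks at other genes.

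Lower receptor peaks were spread over 29 clusters and 15 chromosomes, and higher ones over 6 clusters and 4 chromosomes. Each of the 6 clusters with a higher peak also held a lower one. The large olfactory cluster of chromosome 2, from Olfr987 to Olfr1274 (85330967 to 90401674, 293 genes), held 6 of the 12 higher peaks. They were at Olfr995, Olfr1043, Olfr1045, Olfr1126, Olfr1151 and Olfr48, spread over 4.40 Mb, of which the closest pair, Olfr1043 and Olfr1045, lay 42.7 kb apart. In that cluster 8.22% of 73 peaks were higher (3.08 to 17.0%) and 4.11% were lower (0.856 to 11.5%, at Olfr1213, Olfr1257 and Olfr1271). The cluster was picked for its 6 higher peaks, so no test is given.

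**Figure D4:**
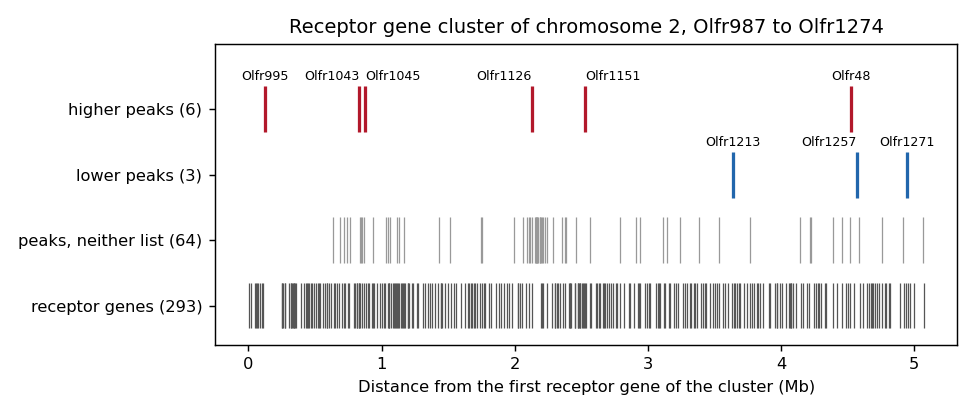
Map of the olfactory cluster of chromosome 2 in Mb from its first receptor gene, with receptor genes, peaks in neither list, lower peaks (blue) and higher peaks (red) as ticks at their centres. The 6 higher peaks lie apart from one another along 4.40 Mb, and the 3 lower peaks lie in the distal part.

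Other clusters held lower peaks alone. That of Vmn1r55 to Vmn1r89 on chromosome 7 (5146490 to 13220289, 73 genes) held 7 lower receptor peaks and 15 lower peaks in all among 117. On chromosome 11, Olfr30 to Olfr225 (58454915 to 59614225) held 25 lower peaks among 55 (45.5%, 32.0 to 59.4%), of which 4 were receptor peaks, all on exons, at Olfr315, Olfr317, Olfr322 and Olfr222. The other 21 were assigned to other genes of that stretch, among them 3 at Arf1 and 2 at Wnt9a. The cluster Olfr90 to Olfr136 on chromosome 17 held 4 lower peaks among 17, at Olfr94, Olfr95, Olfr103 and Olfr135. Olfr543 to Olfr692 on chromosome 7 (102476773 to 105369317, 158 genes) held 4 among 45, at Olfr544, Olfr585, Olfr593 and Olfr663. A count of 0 higher peaks among 45 allows a share of up to 6.67%.

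**Figure D5:**
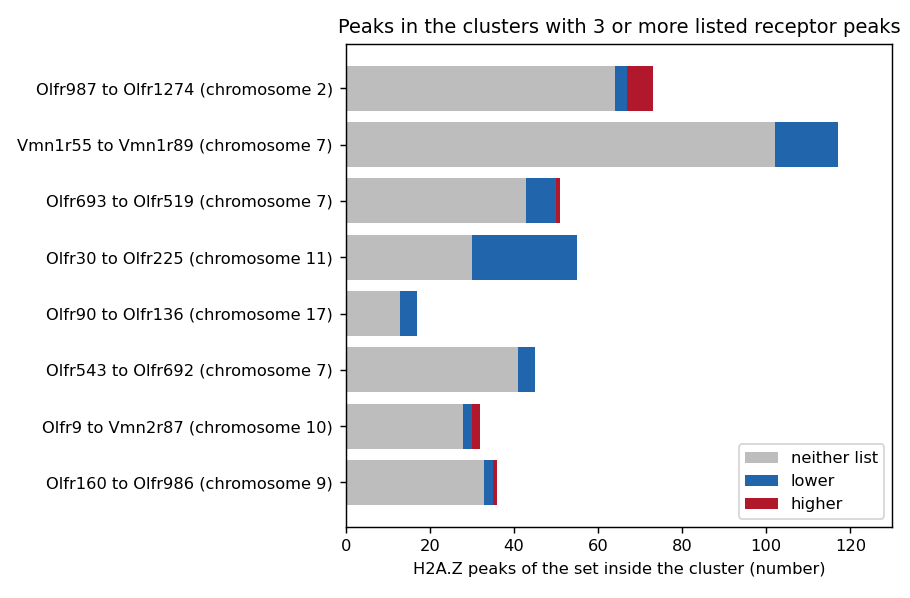
Number of H2A.Z peaks of the set inside the 8 clusters with 3 or more listed receptor peaks, split into neither list (grey), lower (blue) and higher (red). The chromosome 2 cluster has 6 higher peaks of 73, and the chromosome 11 cluster has 25 lower peaks of 55.

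Lower and higher peaks could lie close to each other. On chromosome 10 the 2 higher peaks of Olfr820, on its exon (130017620 to 130018247) and in an RLTR13C2 element (130023890 to 130024390), were 6.21 kb apart, and the lower L1Md_T peak of Olfr821 was centred 21.0 kb beyond the second. On chromosome 2 the higher RLTR11B peak of Olfr48 lay 43.5 kb from the lower L1Md_T peak of Olfr1257. On chromosome 7 the higher RLTR13D6 peak of Olfr510 lay 127 kb from the lower L1Md_A peak of Olfr513. For the other 8 higher peaks the nearest lower receptor peak was between 189 kb and 1786 kb away. At 11 of the 12 the nearest other H2A.Z peak of any kind was in neither list. Of all peaks inside the clusters 778 of 914 were in neither list, so nothing is read from that count.

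Some genes that work with the receptors had lower peaks, and none of those listed had a higher peak. Over all 49997 RefSeq genes and pseudogenes 13.4% had a lower peak and 0.550% a higher one, and nothing is read from counts of 0 in lists this short. That base differs in kind from short lists of chosen genes, so no enrichment or depletion is read from it. Among 20 genes of olfactory signalling 11 had a lower peak and 0 a higher one. They included the adenylyl cyclase Adcy3 (2299 base pairs wide, centred 189 base pairs before the TSS), the G protein subunit Gnal (1969 base pairs, 120 before the TSS), the chloride channel Ano2 and the receptor chaperones Reep1 and Rtp1. Omp, the marker of mature olfactory neurons, had a lower peak of 629 base pairs 457 base pairs past its TSS. Further lower peaks were assigned to Cngb1, Gng13, Slc24a4 and the phosphodiesterase Pde4a, which had 5. Of the 18 peaks 8 were centred within 1 kb of a TSS and 2 were in a named repeat. Among 18 genes listed for vomeronasal signalling and receptor transport 5 had a lower peak, namely Ano1, Gng8, Itpr3, Plcb2 and Meis2, and 0 a higher one. Of these Meis2 encodes a transcription factor, and its peak was intergenic, 205 kb from the TSS.

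Of 22 genes of receptor choice and the olfactory lineage 12 had a lower peak and 0 a higher one. Lhx2, a homeodomain factor that binds receptor enhancers, had 4, of which 1 lay 420 base pairs past its TSS. Ebf3 had 3 and Ebf4 had 1, at -202 base pairs from the TSS. The neuronal factor Neurog1 had 1. Bcl11b had 5, of which none was within 1 kb of its TSS, and Emx2, Lbr and Ldb1 had 1 intergenic peak each. Of the 28 peaks of the list 7 were centred within 1 kb of a TSS and 8 were in a named repeat. Over receptor genes and pseudogenes 3.81% (68 of 1787) had a lower peak, and this share, like that over all genes, counts genes with no H2A.Z peak as well. Many genes of these lists act in other tissues too.

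Of 83 genes of other chemoreceptor families 6 (7.23%, against 13.4% of all RefSeq genes and pseudogenes) had a lower peak and 0 (against 0.550%) a higher one. Those of the taste receptors Tas2r114, Tas2r123 and Tas2r139 were intergenic, in L1Md_A, L1Md_T and L1Md_A elements, and the intronic peak near Ms4a6d was in L1Md_A. Those of the taste receptor Tas1r2, on an exon, and of the formyl peptide receptor Fpr2, intergenic, were in no named repeat.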

How the data were processed

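The labels place 56 libraries in groups by target and treatment, and only H2A.Z, with 4 control and 4 Dox libraries, bears on the deposited peak files. GRCm38 is the build in the submitters' processing notes, which name deepTools, HOMER, Picard, Bowtie2 and Trimmomatic as tools, and per the file headers the lists of changed peaks were annotated with HOMER annotatePeaks on mm10. For the peak caller, the test of change, its threshold and any pooling, nothing is stated (not given in the sources used here). Which list is lower and which is higher in Dox was read from the file names. The authors deposited positions and distances in base pairs, and starts are printed counting from 1.

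Each of the 9395 listed peaks matched 1 peak of the set by coordinates. The 82 receptor peaks were taken by gene name, and their Entrez IDs matched RefSeq genes of GRCm38.p6 for all 82, with the same symbol for 81 (Olfr471 is the pseudogene Olfr471-ps1 there). Upstream windows came from the RefSeq promoter table, which held 64 of the 79 genes. Lower and higher receptor peaks were compared by two-sided Fisher's exact tests over peaks with Benjamini-Hochberg adjustment over 5 tests, and shares have 95% Clopper-Pearson intervals. Where a count was 0, 3 counts set its upper limit. Other comparisons are descriptions. The test was checked on simulated independent counts of the real list sizes, which does not cover dependence between neighbouring peaks. Members and lists were chosen with earlier results of these data known. Named are receptor genes with a peak within 10 kb of a TSS or with 2 peaks, the 5 widest and 3 farthest peaks of each list, the clusters with most listed peaks, and up to 10 listed genes of each pathway list, the first by alphabet, except that some genes are not reported here by name though they count in the totals. Genes beyond these were chosen after their values were seen. Work was done in SciPy 1.17.1, pandas 2.3.3, numpy 2.4.6 and matplotlib 3.10.9 under Python 3.11.15.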

Additional observations from a re-analysis of the deposited data

How the results depend on the processing

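No paired analysis was possible because the files hold no value for any library. The counts of 70 lower and 12 higher receptor peaks, the calls for L1 and ERVK elements and the median distances kept their direction and side of the threshold under the alternatives run for them. Differences below are the share of lower minus that of higher peaks, in percentage points. For peaks within 10 kb (-36.4) the call was lost within 3 kb (-14.8), within 30 kb (-20.0), without peaks of the minimum width (-37.7), with 1 peak per cluster and list (-35.1) and with intron and intergenic peaks alone (-36.2). For the minimum width (-32.6) it was lost at up to 600 base pairs (-31.2), without the pseudogene name (-32.2), with 1 peak per cluster and list (-26.3) and with intron and intergenic peaks alone (-32.7). For any repeat (7.62, not called) the difference reversed with intron and intergenic peaks alone (-8.77). The last 2 settings were added after the data were seen. The lower share inside clusters (13.6%) was 11.2% with gaps up to 500 kb and 11.9% with gaps up to 200 kb. The higher share (1.31%) was 0.663% without peaks of the minimum width, for which no share of the whole set was computed. It was 2.89% of peaks whose nearest gene end was that of a receptor gene. The test of the minimum width could not be run without peaks of that width. With 12 higher peaks, differences of moderate size cannot be detected, and depth is unknown.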
